A study of Mus musculus with 2 samples.

Results

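The chemokine system was described here through 10 genes: the ligands Ccl2, Ccl7, Ccl12, Ccl9, Pf4, Cxcl12 and Cx3cl1 and the receptors Ccr2, Cx3cr1 and Cxcr4. They were chosen by symbol, and each of the 10 symbols matched 1 of the 32534 features in both count tables. The tables came from droplet single-cell RNA-seq with 3′ tags (10x Genomics), where a unique molecular identifier (UMI) marks every captured transcript, of dissociated olfactory epithelium, the nasal tissue that holds the olfactory sensory neurons (OSNs). There were 2 libraries, 1 per group. One was from a 9-week-old female of genotype Tg(Or8a1-OR1A1,-MAPT/mCherry)D736Feins/+ with the background label Tg(Or8a1-OR1A1,-MAPT/mCherry)D736Feins/J, a transgenic mouse that carries the human odorant receptor OR1A1 in a construct whose name also cites Or8a1, MAPT and mCherry. The other was from an 8-week-old wild-type (WT) female whose strain label gives a cross of 10G4-V2.2-#7/Jax with Bl6/129SF1/J. Genotype, strain, age, dissociation and library preparation cannot be told apart between them, there is no second animal of either group to measure a spread, and no test was made. Each interval below is an exact 95% interval and covers counting error only.

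Chemokines are small secreted proteins that guide cells along a gradient by binding G protein-coupled receptors on the cells they attract. Ccl2, Ccl7 and Ccl12 are monocyte chemoattractant proteins that signal through Ccr2, the receptor with which classical monocytes leave the bone marrow. Cx3cl1 (fractalkine) is made as a membrane-bound ligand of Cx3cr1, a receptor of monocytes and tissue macrophages, and Cxcl12 is the ligand of Cxcr4 and of the scavenger receptor Ackr3 and retains leukocytes and guides migrating neural and vascular cells. Ccl9 is a myeloid chemokine of rodents, and Pf4 (platelet factor 4, Cxcl4) is stored in platelet granules and is also made by some macrophages.

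The transgenic library held 70572741 UMIs and the WT library 55701219, of which the feature added for the transgene took 4864 and 6. After filtering, 1745 and 1117 cells remained, with medians of 14440 and 12983 UMIs per cell, and 1 cell barcode occurred in both. The cells were clustered without any chemokine or chemokine receptor gene, so the levels of the 10 genes did not make the classes, and clusters were named from other markers ("-like"). The named classes held 77 transgenic and 31 WT macrophage-like cells with C1qa, C1qb and C1qc, 9 and 59 monocyte-like cells with F13a1 and Ly6c2, 8 and 79 neutrophil-like, 6 and 33 myeloid progenitor-like, 70 and 88 endothelial-like, 84 and 44 fibroblast-like, 68 and 22 horizontal basal-like and 972 and 516 neuronal cells. The C1q marker list summed to 19250 and 19550 counts per 1000000 UMIs of the class (CPM) in macrophage-like cells and to 1053 and 878.2 CPM in monocyte-like cells, and the monocyte list to 190.5 and 191.3 CPM and to 3701 and 6241 CPM. Transgenic values of the monocyte-like, neutrophil-like and myeloid progenitor-like classes rest on fewer than 10 cells each.

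RefSeq promoter windows of GRCm38.p6, which run from 250 bases before to 50 after a gene's start, were at hand for 8 of the 10 genes. The deposited counts use another build, GRCm39, so no coordinate below was joined to them. The windows of 4 ligands are shown because these genes stood for the main sources in the data: Ccl12 for macrophage-like cells (chr11:82101595-82101894, plus strand), Ccl9 for monocyte-like cells (chr11:83578587-83578886, minus strand), Cx3cl1 for endothelial-like and basal-like cells (chr8:94771930-94772229, plus strand) and Cxcl12 for stromal cells (chr6:117168285-117168584, plus strand). They are printed 5′ to 3′ along the gene, with matches to 3 motifs in capitals: TATAAA (the TATA box), GGGCGG (the GC box) and the NF-κB consensus, each on either strand.
Ccl12: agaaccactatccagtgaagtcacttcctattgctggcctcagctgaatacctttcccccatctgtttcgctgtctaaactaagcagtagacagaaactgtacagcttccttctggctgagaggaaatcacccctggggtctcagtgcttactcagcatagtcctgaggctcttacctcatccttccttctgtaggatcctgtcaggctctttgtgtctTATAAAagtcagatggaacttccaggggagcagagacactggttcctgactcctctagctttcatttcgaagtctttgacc
Ccl9: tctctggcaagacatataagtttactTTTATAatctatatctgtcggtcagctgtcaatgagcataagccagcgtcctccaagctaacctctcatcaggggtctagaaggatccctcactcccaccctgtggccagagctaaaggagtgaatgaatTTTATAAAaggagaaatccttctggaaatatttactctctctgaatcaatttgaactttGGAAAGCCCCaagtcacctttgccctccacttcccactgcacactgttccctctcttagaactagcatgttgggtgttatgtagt
Cx3cl1: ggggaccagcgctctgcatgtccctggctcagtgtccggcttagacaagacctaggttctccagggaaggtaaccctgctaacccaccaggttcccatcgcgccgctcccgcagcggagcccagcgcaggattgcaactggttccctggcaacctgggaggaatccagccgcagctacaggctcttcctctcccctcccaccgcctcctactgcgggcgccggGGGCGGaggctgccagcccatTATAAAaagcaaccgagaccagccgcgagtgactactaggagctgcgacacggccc
Cxcl12: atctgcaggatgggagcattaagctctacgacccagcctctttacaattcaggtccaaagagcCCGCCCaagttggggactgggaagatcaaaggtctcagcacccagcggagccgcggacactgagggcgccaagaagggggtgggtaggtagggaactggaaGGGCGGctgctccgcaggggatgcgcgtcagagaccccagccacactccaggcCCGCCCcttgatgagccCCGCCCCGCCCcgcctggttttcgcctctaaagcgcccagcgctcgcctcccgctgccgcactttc
The 2 myeloid ligands had GC shares of 48.0% (Ccl12) and 43.7% (Ccl9) with 2 CpG dinucleotides each, below the median window (52.7% GC, 7 CpG), while Cx3cl1 and Cxcl12 both had 64.7% GC, with 19 and 20 CpG. Ccl12 held a TATA box 31 bases before the start. The Ccl9 window held one 224 bases before it, 2 overlapping ones on opposite strands at 94 and 92, and an NF-κB match on the opposite strand at 35. Cx3cl1 held a GC box at 27 and a TATA box at 6, and Cxcl12 held 5 GC boxes at 187, 86, 33, 16 and 11 bases before the start. TATAAA occurred in 13.6%, GGGCGG in 35.7% and the NF-κB consensus in 8.46% of the 32851 windows of that length in the table, so none of these matches is rare. Ccl2, Ccl7 and Ccl12 lie in 1 cluster of genes on chromosome 11 in the order Ccl2, Ccl7, Ccl11, Ccl12, Ccl8, and Ccl9 lies between Ccl5 and Ccl6 on the same chromosome. The sources used here do not say how reads of such close paralogs were divided in counting.

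Apart from Cxcr4, which was spread over many classes, the genes were concentrated in a few classes each. The class with the highest level, among classes of at least 5 cells, was the same in both libraries for 9 of the 10 genes. Macrophage-like cells led for Ccl2, Ccl7, Ccl12, Pf4 and Cx3cr1, monocyte-like cells for Ccl9 and Ccr2, endothelial-like cells for Cx3cl1 and fibroblast-like cells for Cxcl12. For Ccl2 in the transgenic library, the intervals of macrophage-like and monocyte-like cells overlapped. For Cxcr4 the leading class was T or NK-like in the transgenic library (19 UMIs in 7 cells) and macrophage-like in the WT library. The label of the monocyte class in the selection of these genes already names Ccr2, so its level there is a description. Shares of cells with a UMI had a low background for 9 of the genes: in mature OSN-like cells (medians of 13810 and 12408.5 UMIs) no more than 0.951% of transgenic and 0.685% of WT cells held a UMI of any of them. Cx3cl1 was the exception, with 6.498% and 9.82% of mature OSN-like cells, and whether these shares are background was not tested.

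**Figure D1:**
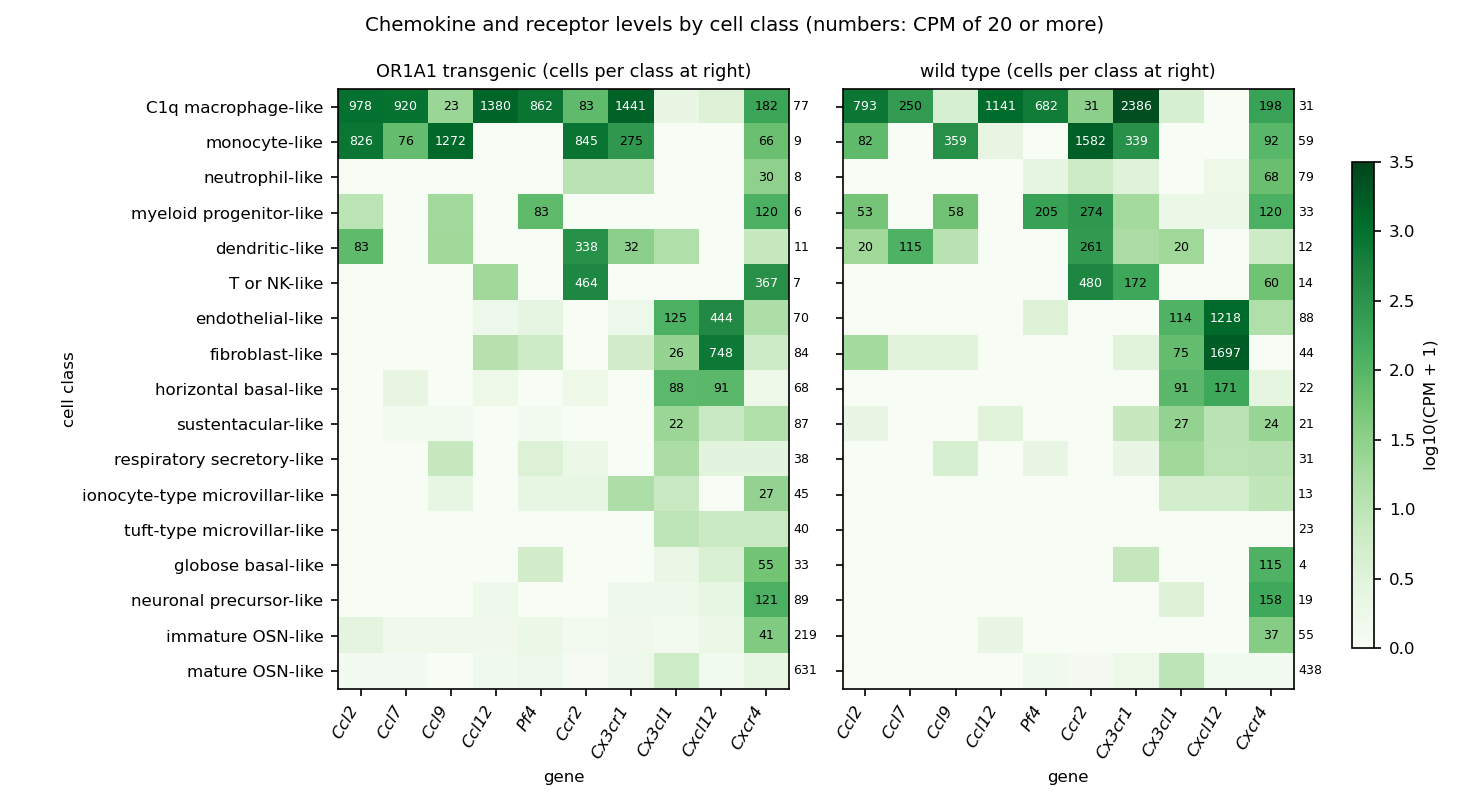
Level of each gene (columns) in each cell class (rows) of the transgenic (left) and WT (right) library, as log10(CPM + 1) in colour with the CPM printed where it reached 20, and the number of cells at the right of each row. Monocyte chemoattractants, Pf4 and Cx3cr1 stand in the macrophage-like row, Ccl9 and Ccr2 in the monocyte-like row, Cx3cl1 and Cxcl12 in the endothelial-like, fibroblast-like and horizontal basal-like rows, and Cxcr4 also in the basal, precursor and immature neuronal rows.

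Ccl2, the main monocyte attractant, was made by macrophage-like cells in both libraries and by few cells outside the myeloid classes. It reached 977.7 CPM (908.3 to 1051) in transgenic and 792.9 CPM (693.3 to 902.7) in WT macrophage-like cells, where 58.4% (46.6 to 69.6%) and 58.1% (39.1 to 75.5%) of cells held it. Macrophage-like cells carried 86.7% of all Ccl2 UMIs among transgenic cells and 63.5% among WT cells. The sums were uneven between cells. A single WT cell held 127 of the 228 Ccl2 UMIs (55.7%) and a single transgenic cell 138 of 734 (18.8%). Without these 2 cells the levels were 803.9 CPM and 374.5 CPM. Outside macrophage-like cells, 54 of the 59 Ccl2 UMIs of WT myeloid progenitor-like cells were in 1 cell. Neutrophil-like cells of both libraries held no Ccl2 UMI (0 of 8 and 0 of 79 cells, which allow shares of up to 37.5% and 3.80%), and fibroblast-like cells held 0 transgenic and 8 WT UMIs, all 8 in 1 cell.

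Ccl7 was the least evenly shared of the monocyte attractants between the libraries. In macrophage-like cells it was at 920.4 CPM (853.1 to 991.7) in the transgenic and 250.4 CPM (195.9 to 315.3) in the WT library. It was found in 39 of 77 transgenic cells (50.6%, 39.0 to 62.2%) and in 4 of 31 WT cells (12.9%, 3.63 to 29.8%), and the intervals of the shares did not overlap. With each cell thinned to 5000 UMIs the shares were 41.6% and 9.68%. No single cell accounted for the transgenic level: the cell with most held 142 of 691 UMIs. Macrophage-like cells carried 97.7% of transgenic and 75.0% of WT Ccl7 UMIs, and most of the WT remainder was 23 UMIs in 2 dendritic-like cells.

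Ccl12 was close to exclusive to macrophage-like cells, which held 97.7% of its transgenic and 98.8% of its WT UMIs. Its level there was 1380 CPM (1297 to 1467) and 1141 CPM (1020 to 1271), and the shares of cells with a UMI were nearly equal, at 74.0% (62.8 to 83.4%) and 74.2% (55.4 to 88.1%). Monocyte-like cells held 0 and 1 Ccl12 UMI. The largest count elsewhere was 11 UMIs in 1 transgenic fibroblast-like cell.

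Within macrophage-like cells the 3 monocyte attractants were found together in some cells and were absent from others. All 3 were detected in 26 of the 77 transgenic cells, 2 in 21, 1 in 21 and none in 9. The corresponding WT numbers were 4, 10, 13 and 4 of 31 cells. Cells with all 3 were deeper than cells with none, with medians of 9292.5 against 7992 UMIs in the transgenic and 13444 against 8268.5 UMIs in the WT library. Ccl7 was found mainly in cells that also held Ccl2: among transgenic cells with Ccl2, 75.6% also held Ccl7, against 15.6% of cells without Ccl2, and the shares were 62.5% and 18.9% after thinning to 5000 UMIs. All 4 WT cells with Ccl7 were among the 18 with Ccl2. Ccl12 did not follow Ccl2 in this way, being found in 75.6% of transgenic cells with Ccl2 and 71.9% of those without. The part of reads shared between the paralogs in these overlaps was not tested.

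The transgenic macrophage-like cells with Ccl7 also differed from the others in genes outside the monocyte attractants. These cells (39, median 9339 UMIs) had Ccl2 at 1746 CPM (1617 to 1883), against 169.4 CPM (129.9 to 217.2) in the 38 without Ccl7 (median 8393 UMIs). Ccl12 stood at 2193 against 524.7 CPM and Pf4 at 1310 against 390.8 CPM. Mrc1, the mannose receptor of resident macrophages, was at 1343 CPM (1230 to 1464) against 563.0 CPM (488.7 to 645.4). C1qa differed little (6881 against 6682 CPM), and Trem2, a lipid-sensing receptor of phagocytes, was lower in the cells with Ccl7 (1042 against 1367 CPM). The 4 WT cells with Ccl7 had the same order for Pf4 (1568 against 484.5 CPM), Mrc1 (2850 against 705.5 CPM) and Trem2 (592.9 against 867.0 CPM), but Cx3cr1 was higher with Ccl7 in the transgenic library (1616 against 1257 CPM) and lower in the WT library (1587 against 2563 CPM). Much of this WT order came from 1 of the 4 cells, which held 52 of their 82 Pf4 UMIs and 83 of their 149 Mrc1 UMIs. Cells were split here by a gene measured in them, so these values are descriptions of cells within 1 library.

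**Figure D2:**
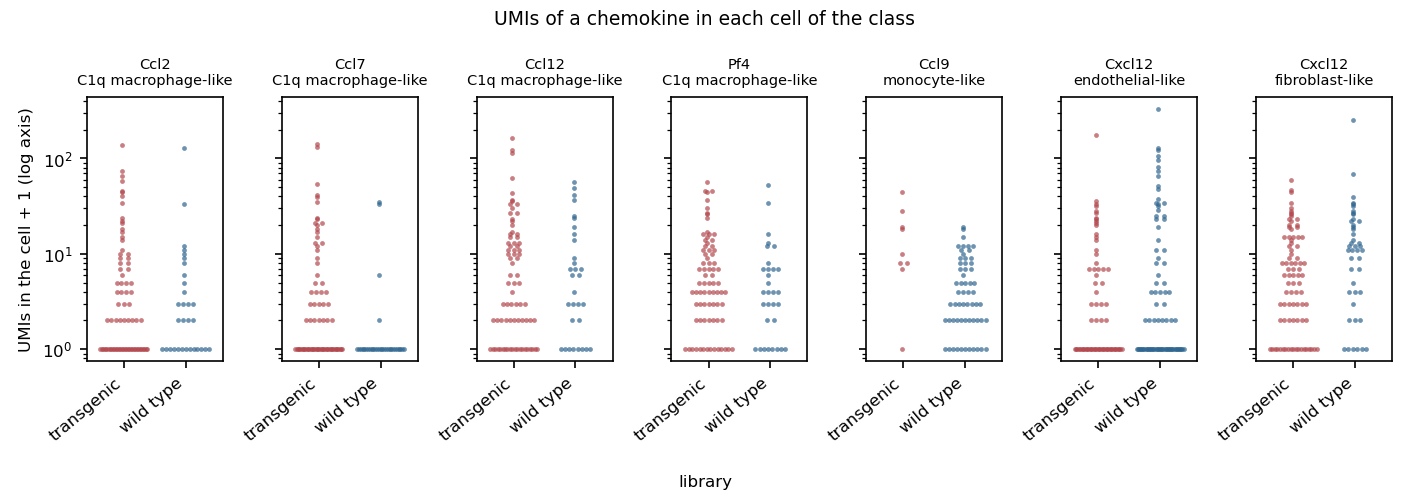
UMIs of a chemokine in every cell of its class, with 1 added, on a log axis, for transgenic (red) and WT (blue) cells, 1 point per cell. Most of the WT Ccl2 of macrophage-like cells comes from 1 cell. Single cells also hold a large part of Cxcl12 in endothelial-like cells of both libraries (31.7% transgenic, 21.9% WT) and in WT fibroblast-like cells (30.7%). Ccl7 spreads over 39 transgenic and 4 WT cells.

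Pf4 was found in most macrophage-like cells of both libraries, and in a second source that carried platelet genes. Macrophage-like cells had 861.8 CPM (796.7 to 930.9) in 81.8% of transgenic cells (71.4 to 89.7%) and 681.6 CPM (589.5 to 784.0) in 74.2% of WT cells (55.4 to 88.1%). They held 94.0% of all transgenic but 44.8% of all WT Pf4 UMIs. The difference lay in 1 WT myeloid progenitor-like cell with 228 Pf4 UMIs. It held 27 UMIs of 5 of the 6 platelet or megakaryocyte markers, 13 of them of Itga2b, the integrin of platelets. It held 0 UMIs of the 8 C1q macrophage markers and 0 of the 5 myeloid progenitor markers, so its class name came only from its cluster. The 6 platelet markers were all at 0 in macrophage-like and monocyte-like cells of both libraries. Monocyte-like cells held 0 Pf4 UMIs in both libraries (0 of 9 and 0 of 59 cells, which allow up to 33.3% and 5.08%).

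Ccl9 marked monocyte-like rather than macrophage-like cells. It was at 1272 CPM (1066 to 1506) in transgenic and 359.1 CPM (315.8 to 406.5) in WT monocyte-like cells, found in 8 of 9 and 48 of 59 cells, and at 22.6 and 3.48 CPM in macrophage-like cells. Monocyte-like cells held 69.1% of transgenic and 65.2% of WT Ccl9 UMIs. Of the remainder, WT myeloid progenitor-like cells had 57.9 CPM. An unnamed cluster led by odorant-binding protein genes (Obp1a, Obp2a) and Lcn3 had 29.7 CPM in 4 of 11 transgenic cells and 56.0 CPM in 6 of 17 WT cells, where 1 WT cell held 42 of the UMIs. No neutrophil-like or mature OSN-like cell of either library held a Ccl9 UMI.

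Among the receptors, Ccr2 was found in several leukocyte classes besides monocyte-like cells. Monocyte-like cells had 844.7 CPM (678.3 to 1039) in the transgenic and 1582 CPM (1490 to 1678) in the WT library, in 77.8% and 94.9% of cells. T or NK-like cells followed with 463.9 CPM (297.2 to 690.3) and 480.1 CPM (362.7 to 623.5), then dendritic-like cells with 338.3 CPM (253.4 to 442.5) and 260.8 CPM (194.8 to 342.0). In the transgenic library the intervals of neighbours in this order overlapped, so the order of the 3 classes rests on the WT library, where monocyte-like cells stood apart from the other 2. WT myeloid progenitor-like cells had 274.4 CPM (244.6 to 306.8) in 16 of 33 cells, and the 6 transgenic ones held none. Macrophage-like cells had 82.6 CPM in 12 of 77 transgenic cells and 31.3 CPM in 1 of 31 WT cells. The 12 transgenic cells with Ccr2 had less Cx3cr1 (953.0 CPM, 799.6 to 1127) than the other 65 (1556 CPM, 1458 to 1658) and less C1qa (5235 against 7148 CPM), while the classical monocyte genes Ly6c2 and Plac8 were at 0 UMIs in both sets of transgenic cells. F13a1, a gene of the monocyte list, was at 245.3 CPM (170.8 to 341.1) in the cells with Ccr2 against 141.4 CPM (113.1 to 174.7). These intervals overlapped, and F13a1 was found in 5 of the 12 cells with Ccr2 and 22 of the 65 without.

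Cx3cr1 was near universal in macrophage-like cells, with a UMI in 96.1% of transgenic (89.0 to 99.2%) and 100% of WT cells (88.8 to 100%). Its level was 1441 CPM (1357 to 1530) and 2386 CPM (2210 to 2571). Monocyte-like cells followed with 275.2 CPM (184.3 to 395.3) and 338.9 CPM (296.9 to 385.1), and 6 of 9 transgenic and 50 of 59 WT monocyte-like cells held both Ccr2 and Cx3cr1. Macrophage-like cells carried 94.6% of transgenic Cx3cr1 UMIs but 69.2% of WT ones, a share that moves with the number of monocyte-like cells in each library. The 20 Cx3cr1 UMIs of WT T or NK-like cells were all in 1 cell.

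Comparing the macrophage-like with the monocyte-like cells of the same library sets aside what differs between the animals. Of the 10 genes, 8 were measured in this comparison, that is, had at least 20 CPM and 50 UMIs on 1 side, and Cx3cl1 and Cxcl12 were not. In the transgenic library 7 of the 8 were at least 2-fold apart, where 31.2% of the 2264 features measured were, and in the WT library 8 of 8, where 34.1% of 2301 were. A gene that was measured only through the class in which it is high had to differ, and the clusters were made from other genes of the same cells, so these counts are descriptions. Ccl7, Ccl12, Pf4, Cx3cr1 and Cxcr4 were higher in macrophage-like cells of both libraries, joined by Ccl2 in the WT library, where 19.7% of transgenic and 10.2% of WT features were at least 2-fold higher on that side. Ccl9 and Ccr2 were higher in monocyte-like cells, as were 11.5% and 23.9% of features.

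The 2 sides of the comparison were largely exclusive for 3 ligands. Ccl12 was at least 48.5-fold higher in transgenic macrophage-like cells, against 3 UMIs over all monocyte-like cells as a floor, and in the WT library its log2 ratio was 8.63 (7.14 to 14.9, on 1 monocyte UMI). Pf4 was at least 30.3-fold and 158-fold higher on the macrophage side. Ccl9 had log2 ratios of −5.74 (−6.63 to −5.08) and −5.70 (−12.0 to −4.20). For the receptors, Ccr2 had log2 ratios of −3.35 (−3.85 to −2.87) and −5.51 (−6.79 to −4.73), Cx3cr1 2.34 (1.86 to 2.97) and 2.81 (2.60 to 3.04), and Cxcr4 1.28 (0.38 to 2.80) and 1.11 (0.56 to 1.64), the last being the closest to 2-fold. Its 2-fold difference was lost under some alternatives, with lowest ratios of 0.38 in the transgenic and 0.52 in the WT library.

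**Figure D3:**
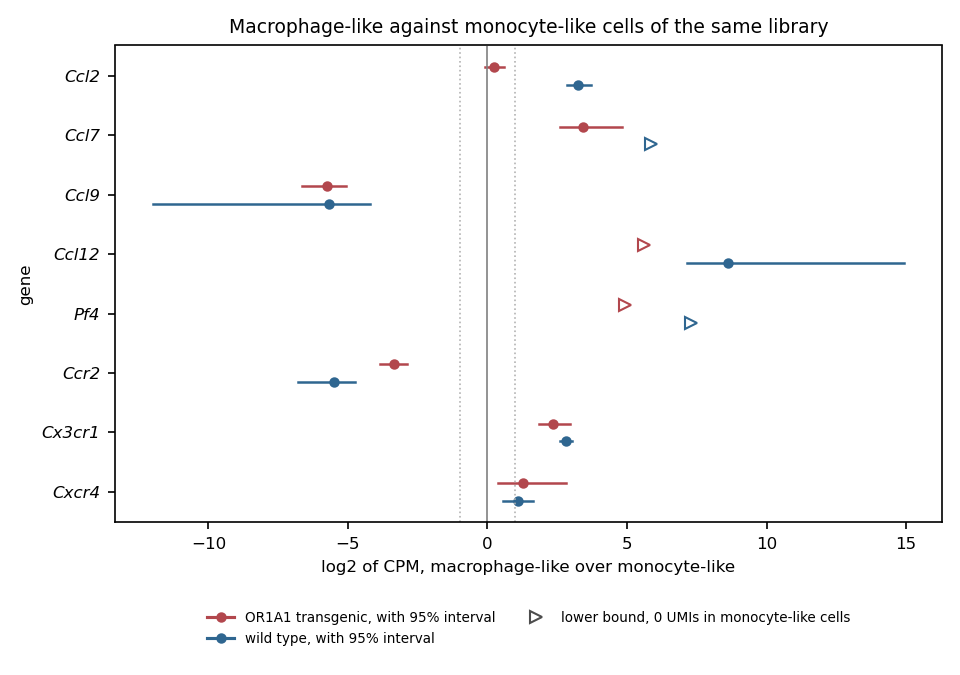
Log2 ratio of CPM in macrophage-like over monocyte-like cells for the 8 genes measured, in the transgenic (red) and WT (blue) library with exact 95% intervals. Open triangles are lower bounds where monocyte-like cells held 0 UMIs, and dotted lines mark 2-fold. Ccl9 and Ccr2 lie on the monocyte side in both libraries, and Ccl2 lies near 0 in the transgenic but not in the WT library.

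Ccl2 was the gene for which the libraries disagreed. Its log2 ratio of macrophage-like over monocyte-like cells was 0.23 (−0.08 to 0.58) in the transgenic library and 3.25 (2.85 to 3.72) in the WT library, with 825.7 CPM in transgenic and 82.19 CPM in WT monocyte-like cells. The transgenic value rests on 87 UMIs in 5 of 9 cells. Of these, 85 UMIs were in the 4 transgenic monocyte-like cells that also held 3 or more C1q macrophage markers (1827 CPM, against 34.0 CPM in the other 5). The same split left Ccl2 at 98.96 CPM in 18 and 73.74 CPM in 41 WT cells. What gave these 4 cells both sets of markers was not tested. They held 0 Ccl12 UMIs, while Ccl12 stood at 1380 CPM in macrophage-like cells of that library.

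Of 49 other chemokine and chemokine receptor genes of a fixed list, 9 were measured between macrophage-like and monocyte-like cells in the transgenic and 7 in the WT library. In the transgenic library 6 were at least 2-fold higher in macrophage-like cells (Ccl3, Ccl4, Ccl8, Cxcl1, Cxcl16 and Ccrl2) and 2 in monocyte-like cells (Ccl6 and Ccr1), and in the WT library 4 (Ccl3, Ccl4, Cxcl2 and Cxcl16) and 1 (Ccl6). Over all features measured, 19.7% of transgenic and 10.2% of WT features were at least 2-fold higher in macrophage-like cells. The shares higher in monocyte-like cells were 11.5% and 23.9%. Ccl6, the neighbour of Ccl9 on chromosome 11, was at 1898 and 976.2 CPM in monocyte-like cells, with log2 ratios of −5.06 and −5.14. Cxcl16, a membrane-bound ligand of Cxcr6, had ratios of 4.63 and 4.97 in the other direction, and Ccl4, an inflammatory chemokine of macrophages, 3.59 and 2.18. Immediate early and stress genes that dissociation is known to induce were also higher on the macrophage side: 9 of 12 measured in the transgenic and 7 of 11 in the WT library were at least 2-fold higher in macrophage-like cells, with medians of 1.52 and 1.08. The shares over all features on that side were the 19.7% and 10.2% given above. Their part in the chemokine levels was not tested.

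Cxcl12, the ligand of Cxcr4, had stromal sources in both libraries and a lower level in an epithelial stem cell class. Fibroblast-like cells had 747.7 CPM (695.1 to 803.2) in the transgenic and 1697 CPM (1583 to 1818) in the WT library, in 77.4% and 86.4% of cells. Endothelial-like cells had 443.8 CPM (407.8 to 482.2) and 1218 CPM (1157 to 1281), in 48.6% and 51.1% of cells. Horizontal basal-like cells, the reserve stem cells marked by Krt5 and Trp63, had 90.7 CPM (75.4 to 108) and 171.0 CPM (139 to 208), in 67.6% and 90.9% of cells (32.4% and 36.4% after thinning to 5000 UMIs). The order of the 3 classes was the same in both libraries and their intervals did not overlap. Sustentacular-like cells, the supporting cells of the epithelium, had 6.26 and 9.57 CPM.

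Within the endothelial-like class Cxcl12 was uneven. The cluster led by Ly6c1, Flt1 and Sox17 had 518.2 CPM in transgenic and 1472 CPM in WT cells. The cluster led by Vwf and Selp, genes of venous endothelium, had 11.7 CPM (2 UMIs) and 115.1 CPM (16 UMIs), and 12 cells led by Prox1 and Mmrn1, genes of lymphatic endothelium, had 290.8 and 141.3 CPM on 9 and 13 UMIs. Cells with at least 3 of 7 pericyte or smooth muscle markers were 12 of 70 transgenic and 13 of 88 WT endothelial-like cells. They held 47.8% and 42.5% of the class's Cxcl12 UMIs, and the cells with the largest counts in both libraries (177 and 326 UMIs) carried all 8 endothelial and all 7 pericyte markers. The remaining endothelial-like cells had 303.9 CPM (270.0 to 340.8) and 884.7 CPM (826.5 to 945.9), so Cxcl12 was present there too. Fibroblast-like cells were likewise mixed: 42 of 84 transgenic and 15 of 44 WT cells held at least 3 pericyte markers, and these had 1073 and 1616 CPM, against 374.7 and 1737 CPM in the others. Under 4 alternatives (fixed minima of 1000 and of 2000 UMIs, the top 5% of doublet scores removed, or classes from each cell's own markers) a separate pericyte or smooth muscle-like class formed and led for Cxcl12 in the WT library, and under the last of these also in the transgenic library.

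Cx3cl1, the membrane-bound ligand of Cx3cr1, had an endothelial and a basal epithelial source at like levels. Endothelial-like cells had 124.6 CPM (105.9 to 145.7) in transgenic and 114.3 CPM (96.1 to 134.8) in WT cells, in 39 of 70 and 44 of 88 cells. Horizontal basal-like cells had 88.5 CPM (73.4 to 106) and 90.6 CPM (67.9 to 119), in 70.6% and 72.7%. The counts do not settle the order of these 2 classes, since their intervals lay edge to edge in the transgenic and overlapped in the WT library. Fibroblast-like cells had 25.9 CPM (16.9 to 38.0) and 74.5 CPM (52.2 to 103), on 26 and 36 UMIs. An unnamed cluster led by the secretory genes Reg3g and Bpifa1 together with Krt15 had 74.9 and 68.0 CPM. In the Vwf cluster, where Cxcl12 was low, transgenic endothelial-like cells had Cx3cl1 at 111.1 CPM (66.9 to 174), within counting error of the Ly6c1 cluster (130.5 CPM, 109.6 to 154.2). WT cells had 57.5 CPM (24.9 to 113) on 8 UMIs against 132.8 CPM (111.1 to 157.5). Cells led by Prox1 held 0 Cx3cl1 UMIs in both libraries (4 and 8 cells). Cells with pericyte markers held 11.5% and 12.1% of the class's Cx3cl1. Mature OSN-like cells had 4.80 and 8.85 CPM, below the 7.47 and 12.1 CPM of free RNA (barcodes under 100 UMIs). Immature OSN-like cells of the same libraries held less, at 0.295 CPM (1 UMI) and 0 UMIs. Whether the Cx3cl1 of mature OSN-like cells was background was not tested.

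Cxcr4 was the gene with receivers on both the leukocyte and the neuronal side. Macrophage-like cells had 182.5 CPM (153.2 to 215.7) in the transgenic and 198.2 CPM (150.1 to 256.8) in the WT library, in 46.8% and 48.4% of cells, and myeloid progenitor-like cells had 120.3 CPM in both. The latter class is a single cluster whose leading genes include Igkc, Vpreb3 and Cd79a of the B lineage. Its 6 transgenic cells held 1 of the 5 myeloid progenitor markers (74.05 CPM, against 10790 CPM for all 5 in the 33 WT cells), while the B lineage list came to 1574 and 480.1 CPM. A B lineage-like class led for Cxcr4 in the WT library under 3 alternatives (fixed minima of 1000 and of 2000 UMIs and classes from each cell's own markers), and in the transgenic library at 2000 UMIs. Neutrophil-like cells had 29.6 CPM (3 UMIs) and 67.9 CPM (54.7 to 83.4). In the WT library the less mature neutrophil-like cluster, led by Camp and Ngp, had 85.0 CPM of Cxcr4 (65.9 to 108) and 71.0 CPM of Cxcr2, the receptor with which mature neutrophils respond to Cxcl1 and Cxcl2. The cluster led by Retnlg and Mmp8 had 43.5 CPM of Cxcr4 (27.9 to 64.7) and 804.9 CPM of Cxcr2 (731.8 to 883.4), so both receptors ran in opposite order over the 2 clusters.

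Along the neuronal lineage Cxcr4 was present in progenitors and early immature cells and nearly absent from mature neurons, in both libraries. Globose basal-like cells, the cycling progenitors, had 54.7 CPM (41.0 to 71.5) in 33 transgenic cells and 115.4 CPM (66.0 to 188) in 4 WT cells, 1 of which held 13 of the 16 UMIs. Immediate neuronal precursor-like cells had 120.8 CPM (104.6 to 138.7) and 158.4 CPM (122.3 to 201.9), in 82.0% and 89.5% of cells (38.2% and 47.4% after thinning to 5000 UMIs). The immature OSN-like cluster led by Tex15 had 230.2 CPM (185.8 to 282.0) in 28 transgenic and 222.4 CPM (135.8 to 343.4) in 5 WT cells. The later immature cluster led by Gap43 had 15.1 CPM (11 to 20.2) and 16.1 CPM (8.58 to 27.5), and mature OSN-like cells 1.37 and 0.361 CPM, on 12 and 2 UMIs. Free RNA had Cxcr4 at 9.33 and 11.7 CPM, over UMIs that were 37.4% and 51.3% mitochondrial. These values are CPM of free RNA, so they do not give the background level inside a cell. Whether the Cxcr4 of the Gap43 cluster was background was not tested. The step between the 2 immature clusters exceeded their counting intervals in both libraries, while the precursor and Tex15 intervals overlapped in the WT library.

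**Figure D4:**
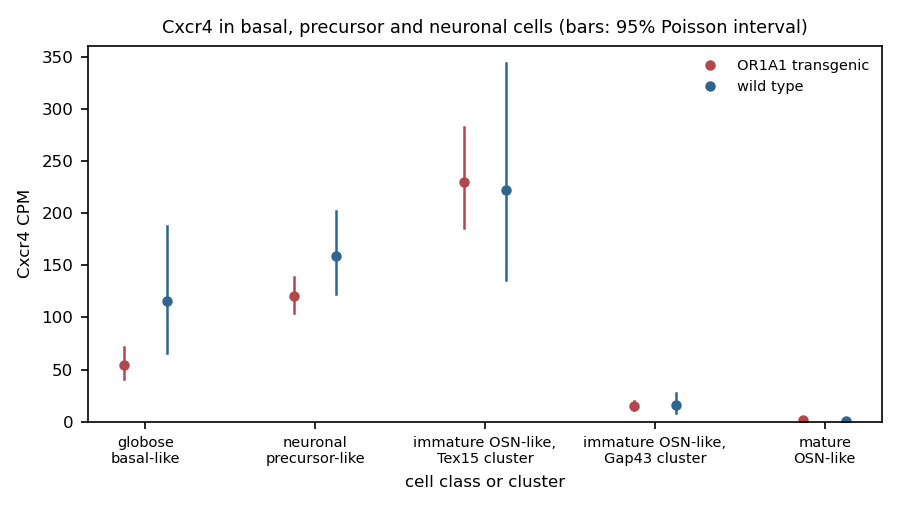
Cxcr4 in CPM, with exact Poisson 95% intervals, in classes and clusters ordered from globose basal-like to mature OSN-like cells, for the transgenic (red) and WT (blue) library. In both libraries the level peaks in the Tex15 cluster of immature cells (230.2 and 222.4 CPM) and is 1.37 CPM or lower in mature cells.

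Ackr3, the scavenger receptor of Cxcl12, was found in horizontal basal-like cells, a class that also held its ligand. Horizontal basal-like cells had 205.7 CPM (182.3 to 231.3) and 165.9 CPM (134.5 to 202.4) of Ackr3, in 86.8% and 86.4% of cells, and sustentacular-like cells 76.7 and 97.9 CPM. In endothelial-like cells it was at 68.3 and 42.4 CPM. Other ligands of the fixed list had sources in epithelial, stromal and neuronal classes: Ccl20 in horizontal basal-like cells (184.3 and 376.2 CPM), Cxcl5 in fibroblast-like cells (629.1 and 728.6 CPM) and respiratory secretory-like cells (597.8 and 460.7 CPM), Cxcl17 in the latter (498.8 and 454.0 CPM), and Ccl27a in immature (102.1 and 90.3 CPM) and mature (55.2 and 75.3 CPM) OSN-like cells. Neutrophil-like cells made Cxcl2 (404.9 and 1401 CPM), and endothelial-like cells Ccl21a (300.9 and 995.8 CPM), a ligand of Ccr7 with near-identical copies in the genome. All Ccl21a UMIs of endothelial-like cells were in the cluster led by Prox1 and Mmrn1, with 379 UMIs in 4 transgenic and 1220 UMIs in 8 WT cells.

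Between the 2 libraries, the genes at least 2-fold apart within a class differed from class to class. In macrophage-like cells 7 of the 10 were measured and 2 were called, both higher in the transgenic library, where 3.11% of 2249 features were at least 2-fold apart in either direction and 2.36% were higher in the transgenic library. Ccl7 had a log2 ratio of transgenic over WT of 1.86 (1.53 to 2.25), and Ccr2 of 1.27 (0.38 to 2.60) on 62 and 9 UMIs. The Ccr2 call depended on the processing, with ratios from 0.72 to 4.05 over the alternatives. The other 5 stayed under 2-fold. Ccl2 had 0.30 (0.09 to 0.52), Ccl12 0.27 and Pf4 0.33, while Cx3cr1 was lower in the transgenic library at −0.73 (−0.87 to −0.59) and Cxcr4 stood at −0.13. Without the cell with most Ccl2 in each library the Ccl2 ratio was 1.09. Among the other chemokine genes 3 of 8 measured were higher in transgenic macrophage-like cells, namely Ccl8 (1.11), Ccrl2 (1.34) and Cxcl1, which was at least 6.51-fold higher on 51 against 0 UMIs. None of the 12 dissociation-linked genes measured was 2-fold apart in this class, with a median log2 ratio of −0.17. These genes had other values in other classes. In monocyte-like cells 2 of 11 were at least 2-fold lower in the transgenic library (median −0.54), where 8.97% of all features were apart in either direction. In endothelial-like cells 12 of 12 had higher transgenic values, all by less than 2-fold (median 0.60, 0.21 to 0.96). In fibroblast-like cells 1 of 12 was at least 2-fold lower (median 0.21), against 1.44% of all features. In horizontal basal-like cells 0 of 13 were 2-fold apart (median 0.41), against 2.75% of features. In neutrophil-like cells 2 of 10 were at least 2-fold higher (median 0.03), where 14.3% of features were apart in either direction. Their part in the differences given for those classes was not tested.

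In monocyte-like cells, which are 9 in the transgenic library, 2 of 5 genes measured were called where 8.97% of 2197 features were and 2.18% were higher in the transgenic library. Both genes were higher in the transgenic library: Ccl2 by a log2 ratio of 3.32 (2.83 to 3.84) and Ccl9 by 1.83 (1.51 to 2.13). Without the 4 transgenic cells that held C1q markers, the remaining 5 had Ccl9 at 628.7 CPM (442.6 to 866.5) and Ccl2 at 34.0 CPM, against 351.4 and 73.74 CPM in the WT cells of the same kind, so the higher transgenic Ccl2 was not seen in them and Ccl9 was under 2-fold apart. Ccr2 had a ratio of −0.89 and Cx3cr1 of −0.26. Of the other chemokine genes, Cxcl2 was higher (2.69) and Ccl4 lower (−1.84) in transgenic monocyte-like cells. In neutrophil-like cells Cxcr4 was the only gene of the 10 measured and was under 2-fold (−0.80), where 14.3% of features were called. Cxcl2 (−1.76) and Ccl6 (−2.80) were lower and Ccrl2 (1.47) was higher in the 8 transgenic neutrophil-like cells. The 2 neutrophil-like clusters had unlike shares of the class, with 7 transgenic and 55 WT cells in the one led by Retnlg and Mmp8 and 1 and 24 in the one led by Camp and Ngp. In the Retnlg cluster alone Cxcr4 was at 28.1 and 43.5 CPM, Cxcl2 at 576.5 and 3386 CPM, Ccl6 at 28.1 and 485.8 CPM and Ccrl2 at 801.4 and 478.6 CPM. In myeloid progenitor-like cells, where the marker content of the 6 transgenic and 33 WT cells differed as given with Cxcr4, 4 of 5 genes measured were at least 2-fold lower in the transgenic library, against 20.8% of 3462 features in either direction. Ccr2 was at least 9.88-fold lower on 0 against 308 UMIs, Ccl2 had a ratio of −1.53 on 1 against 59 UMIs, Pf4 −1.15 on 9 against 230 UMIs and Ccl9 −1.08 on 2 against 65 UMIs. Single cells held most of the WT Ccl2 and Pf4 there, and without the cell with most UMIs in each library the ratios turned, to 1.42 for Ccl2 and 4.42 for Pf4. Ccl9 turned to 0.87 after thinning, and Ccr2 ranged from −5.89 to −0.22 over the alternatives, so none of these 4 calls held throughout. Cxcr4 stood at 0.10.

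The stromal ligand Cxcl12 was lower in the transgenic library in each of its source classes taken whole, though not in the Prox1 cluster of endothelial-like cells, which held few Cxcl12 UMIs. Its log2 ratio was −1.46 (−1.60 to −1.32) in endothelial-like cells, where it was 1 of 2 genes measured that was called against 3.03% of 4851 features (1.79% lower in the transgenic library), and −1.18 (−1.33 to −1.04) in fibroblast-like cells, as 1 of 1 against 3.58% of 3464 (1.44% lower). In horizontal basal-like cells the ratio was −0.92 (−1.31 to −0.52), with a range from −0.96 to −0.004 over the alternatives, and under 2-fold, as were both genes measured there against 2.75% of 4105 features. Cx3cl1 did not follow Cxcl12, with 0.12 (−0.21 to 0.46) in endothelial-like and −0.05 in horizontal basal-like cells. Leaving out the cell with most Cxcl12 in each library gave 329.1 against 982.4 CPM in endothelial-like cells, and 720.7 against 1200 CPM and a ratio of −0.74, no longer 2-fold, in fibroblast-like cells, where 1 WT cell held 252 of the 820 UMIs. Among endothelial-like cells with fewer than 3 pericyte markers the ratio was −1.54 (−1.74 to −1.35), as large as in the whole class. At a fixed minimum of 1000 UMIs per barcode, which keeps shallower cells, the endothelial ratio was −0.83 and under 2-fold. The fibroblast-like class held different mixtures in the 2 libraries: the pericyte list came to 7330 and 3734 CPM in transgenic and WT cells and an osteoblast list to 558.3 and 3801 CPM. Cells with 3 or more osteoblast markers were 9 of 84 transgenic and 2 of 44 WT cells. Among the fibroblast-like cells with fewer, the Cxcl12 ratio was −1.15 (−1.30 to −1.01). By pericyte markers the ratio was −0.59 (−0.81 to −0.37) among cells with 3 or more and −2.21 (−2.47 to −1.97) among the others. The part of this mixture in the difference was not tested further.

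Cxcr4 differed by less than 2-fold between the libraries in immediate neuronal precursor-like cells (−0.41, −0.80 to 0.04; background 2.15% of 4979 features) and in immature OSN-like cells (0.11; 2.70% of 6889). In globose basal-like cells it was lower in the transgenic library by a log2 ratio of −1.14 (−1.91 to −0.17), where 7.13% of 3184 features were at least 2-fold apart, on 16 WT UMIs of which 13 were in 1 cell, and without the cell with most Cxcr4 in each library the ratio turned to 0.41. The ratio over all neuronal cells, 0.71, mixes classes whose numbers differ between the libraries. Among the other chemokine genes, Ccl21a (−1.72) and Cxcl2 (−3.75) were lower in transgenic endothelial-like cells. Within the Prox1 cluster, which held all of it, Ccl21a was at 12240 and 13260 CPM with overlapping intervals, and 91 of the 104 WT Cxcl2 UMIs were in 1 cell. Ackr1, the vessel-wall receptor that binds many chemokines, was higher (1.19) in transgenic endothelial-like cells, and Ccl11 was higher (1.35) in transgenic fibroblast-like cells. Ccl20 was lower (−1.03) in transgenic horizontal basal-like cells.

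**Figure D5:**
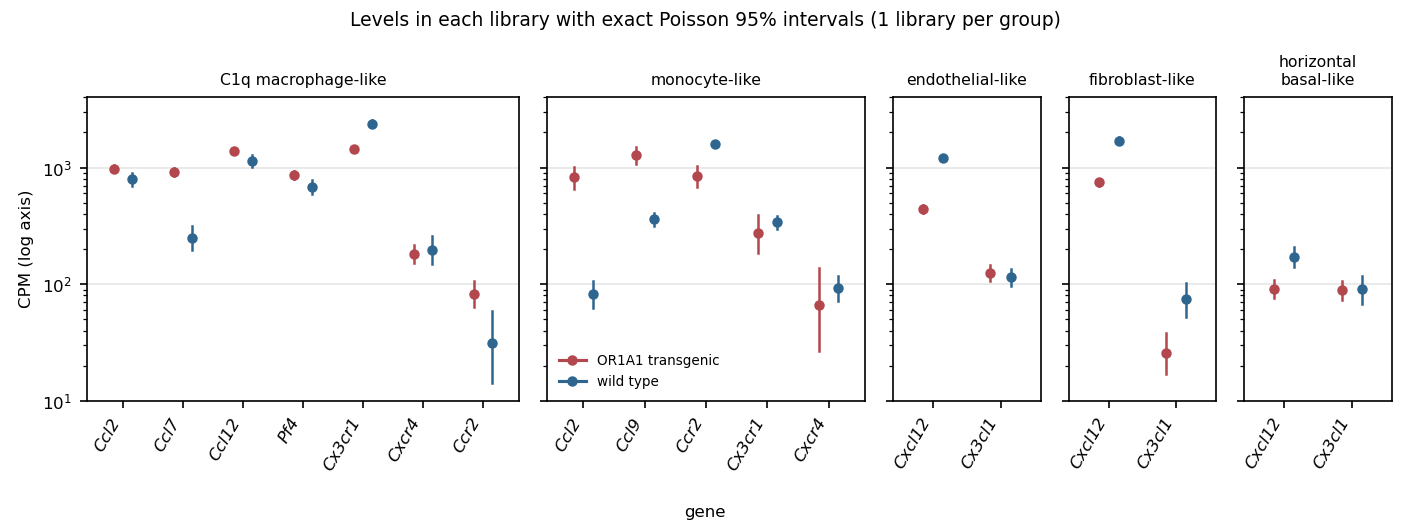
CPM on a log axis, with exact Poisson 95% intervals, of the genes at home in 5 classes, for the transgenic (red) and WT (blue) library. The intervals are far apart for Ccl7 in macrophage-like cells, Ccl2 and Ccl9 in monocyte-like cells and Cxcl12 in endothelial-like and fibroblast-like cells, and overlap for Cx3cl1 in endothelial-like and horizontal basal-like cells.

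Over classes with at least 20 cells in a library (26 points of class and library), the genes whose levels ran most like those of the 10, among genes outside the chemokine and marker lists, were found by Pearson correlation of log2(CPM + 5). The points share library depth and cluster definitions, so these are descriptions. Lpxn (0.97) and Gpr183 (0.97) ran most like Ccl2, Cd209f (0.98) most like Ccl7, C3ar1 (0.98) most like Ccl12, Il21r (0.96) most like Pf4 and Aif1 (0.99) most like Cx3cr1. Ifi209 was the most alike of both Ccl9 (0.93) and Ccr2 (0.97). For the stromal ligands they were Ccn2 (0.98, Cxcl12) and Tns2 (0.95, Cx3cl1). Cxcr4, with its many classes, had no close match, and Cntrl came first at 0.82.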

How the data were processed

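Olfactory epithelium was minced, dissociated with collagenase and other enzymes, strained and loaded for 10x 3′ v3.1 single-cell RNA-seq, per the labels' protocols. The authors deposited unfiltered tables of UMI counts for every barcode. The submitters' processing notes name Cell Ranger 6.1.1 and GRCm39 (mm39), and Cell Ranger 4 stands in the headers of the matrices. The 10 genes and the lists were chosen with earlier results of these data known.

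A barcode was kept with at least 10% of the 99th percentile of the 5000 deepest barcodes (5827.5 transgenic and 5317.7 WT UMIs, 1000 at least), 500 genes detected and a mitochondrial share of no more than 10%. Scrublet marked 4 and 2 cells, which were removed. So few calls mean that doublets were in effect not removed, and an alternative dropped the 5% with the highest scores. Both libraries were clustered together (scanpy 1.11.5, igraph 0.11.9, 2000 variable genes, 30 components, 15 neighbours, resolution 1) without 64 chemokine and receptor genes, giving 29 clusters. Naming took 3 markers at 2-fold and a mean excess of 1 on the log2 scale, and 4 clusters stayed unnamed. UMIs were summed over each class as CPM with Poisson intervals, and shares carry Clopper-Pearson intervals (SciPy 1.17.1). A count of 0 is read against 3 counts. Log2 ratios have 1 UMI added and a conditional binomial interval, and a gene was called at 2-fold if measured (20 CPM and 50 UMIs on 1 side). The ratio, interval and naming steps were tested on simulated data.

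Genes named are the 10, other chemokine genes by a fixed rule (in each class the 3 of highest CPM among those at 50 CPM or more, and those past 2-fold between the libraries, up to 5 a direction), the 3 genes most alike each, and markers on which a result turns. One gene of the fixed list is not reported here. The splits by C1q, pericyte and osteoblast markers and by Ccl7 or Ccr2, and the removal of the cell with most UMIs, were chosen after the values had been seen.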

Additional observations from a re-analysis of the deposited data

Results flagged for a closer look

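Free RNA was taken as the barcodes with fewer than 100 UMIs and was set above only beside Cx3cl1 and Cxcr4 levels of neuronal cells. As CPM of all free UMIs, it held more of the monocyte attractants in the transgenic than in the WT library. Mitochondrial RNA took 37.4% of transgenic and 51.3% of WT free UMIs, which enters every CPM given here. Omp, a marker of mature OSNs, was also higher in transgenic free RNA, at 1201 against 912.3 CPM. Ccl2 was at 16.33 CPM against 6.065 CPM (35 and 14 UMIs), Ccl7 at 15.86 against 0.8664 CPM (34 and 2 UMIs) and Ccl12 at 30.33 against 6.931 CPM. The WT library had more Ccl9 (1.40 against 7.80 CPM) and Ccr2 (2.33 against 13.4 CPM) in free RNA, and it also held more monocyte-like cells (59 against 9). The transgenic library held more macrophage-like cells (77 against 31). The part of these cell numbers and of the mitochondrial shares in the free RNA values was not tested.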

How the results depend on the processing

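With 1 library per group no replicate could be left out, and no difference between the libraries can be set against animals. No paired analysis was possible because each group has 1 library. Named classes are small, doublets were hardly called, and intervals cover counting error only. Of 510 log2 ratios of the 10 genes under the alternatives, 448 stayed within the interval and 9 that had been at least 2-fold reversed, all in the globose basal-like (4 WT cells) and myeloid progenitor-like (6 transgenic cells) classes. Without the cell with most UMIs, Cxcr4 was at 0.41 in the former, and Ccl2 at 1.42 and Pf4 at 4.42 in the latter. There Ccl2 was also at 0.20 with a minimum of 2000 UMIs, 0.19 with a mitochondrial maximum of 20%, 0.34 without the top 5% of doublet scores, and 0.23 at resolution 0.5 and with chemokine genes allowed in clustering, and Ccl9 was at 0.87 after thinning. The count of genes 2-fold apart between macrophage-like and monocyte-like cells and the 9 genes with 1 leading class in both libraries stayed within 1.5 times under each alternative. Besides the changes given above for Cxcl12 and Cxcr4, some leading classes moved. Monocyte-like cells led for transgenic Ccl2 with classes from each cell's own markers, and horizontal basal-like cells led for WT Cx3cl1 after thinning. Between the libraries the count in macrophage-like cells (2) was 1 with a mitochondrial maximum of 20%, 1 with classes from each cell's own markers, 1 after thinning, and 4 with no minimum level. With no minimum it was 7 in monocyte-like cells (2), 9 in fibroblast-like cells (1) and 5 in horizontal basal-like cells (0). In endothelial-like cells (1) it was 0 at fixed minima of 1000 and of 2000 UMIs. In fibroblast-like cells it was 2 with minima of 10 CPM and 20 UMIs and 0 without the cell with most UMIs, and in horizontal basal-like cells 1 at resolution 0.5. Over all alternatives the ratio of transgenic over WT ranged from 1.67 to 2.41 for Ccl7 and from 0.72 to 4.05 for Ccr2 in macrophage-like cells, from 1.55 to 2.61 for Ccl9 in monocyte-like cells, and from −1.58 to −0.83, −1.61 to −0.74 and −0.96 to −0.004 for Cxcl12 in endothelial-like, fibroblast-like and horizontal basal-like cells. The Ccl2 ratio of macrophage-like over monocyte-like cells ranged from −0.71 to 0.58 in the transgenic library. The cause of these shifts was not tested. The removal of the cell with most UMIs was chosen after seeing the data.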
